A study of Mus musculus with 13 samples.

Results

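Whole-brain RNA was examined for 7 of the 54307 genes in the count table: 4 copies of protein-coding genes (Gm3608, Rps3a2, Rps3a3 and Hist1h2al) and the 3 near-identical parents of these copies on chromosome 3 (Capza1, Rps3a1 and Hist2h2aa2). The genes were selected on these libraries, because the counts of the copies were high in some Adar genotypes and near 0 in others. The genotype differences of the copies, and those of the parents that share their reads, are therefore given as a description with no test. The samples were 13 C57BL/6 mice, each giving 1 library of whole brain. Adar encodes ADAR1, an enzyme that edits double-stranded RNA by turning adenosine into inosine, and P195A is a point mutation in its Zα domain. Wild-type mice (wt, n = 3, 2 females and 1 male) were 48, 48 and 74 days old. Mice with 1 mutant allele (P195A/+, n = 3, 2 females and 1 male) were 43 days old. Mice with 2 mutant alleles (P195A/P195A, n = 4, 3 females and 1 male) were 42 or 48 days old. P195A/- mice (n = 3, 2 females and 1 male) were 42 days old; their long genotype label puts P195A on each side and then adds AdarKO/+, which the labels leave unexplained. Weaning ages were 19, 19 and 24 days in wt, 21 days for P195A/+, 20, 20, 19 and 19 days for P195A/P195A, and 20 days for P195A/-. No wt mouse had the age and weaning age of any P195A/+ or P195A/- mouse. In those comparisons, genotype cannot be told apart from age and weaning age. The labels name no litters, and they give no other engineered allele or treatment.

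A processed copy, or retrocopy, arises when the messenger RNA of a gene is reverse transcribed and inserted elsewhere in the genome, so it carries the spliced sequence of its parent without introns. Programs that estimate gene counts from short reads divide the reads that fit several transcripts by a statistical model and by the few bases that differ, so the estimates for copy and parent depend on each other. Capza1 encodes the alpha 1 subunit of the actin capping protein, which binds the fast-growing end of actin filaments. Rps3a1 encodes the ribosomal protein eS1 of the small (40S) ribosomal subunit, and Hist2h2aa2 encodes a replication-dependent histone H2A, a core protein of the nucleosome.

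Positions of all 7 genes, looked up by gene ID, are those of GENCODE M21 (GRCm38). Capza1 lies at chr3:104822779-104864505 on the minus strand, with 10 exons in its longest transcript. Rps3a1 lies at chr3:86137940-86142702 (minus strand, 6 exons), and Hist2h2aa2, a gene of 1 exon, at chr3:96239749-96240276 on the same strand. Adar itself is on this chromosome, at chr3:89715022-89753446 on the plus strand. The distance to Adar was 3.572 Mb for Rps3a1, 6.486 Mb for Hist2h2aa2 and 15.07 Mb for Capza1. None of the copies is on chromosome 3. Gm3608, annotated as a pseudogene of 2 exons, is at chr1:105455971-105458829 on the plus strand. Rps3a2 is a processed pseudogene of 1 exon at chr14:88123017-88123808 on the minus strand, and Rps3a3 one at chr13:108670603-108671397 on the plus strand. Hist1h2al, also annotated as a processed pseudogene, was identified by its gene ID (ENSMUSG00000091383) and is at chr13:51202727-51203065 on the minus strand.

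The copies differ from their parents by few bases. Gm3608 matched the Capza1 transcript at 99.55% of 2859 aligned columns, with 8 substitutions, 3 of them in the coding sequence, and 5 gap columns. Rps3a2 matched Rps3a1 at 99.49% of 792 columns, with 4 substitutions and no gap. Rps3a3 was less alike, at 98.87% of 795 columns and with 9 substitutions. Hist1h2al, which lacks both ends of the Hist2h2aa2 coding sequence, matched at 99.41% of 339 columns with 2 substitutions. The coding substitutions below are shown because reads over them are among those that can tell copy from parent: all 3 of Gm3608, the 2 that Rps3a2 and Rps3a3 have in common, and both of Hist1h2al. Each line gives the transcript sequence of GENCODE M21 from 5′ to 3′, with 14 bases on each side, and the capital marks the base that differs. The substitutions are numbered from 1 at the first base of the parent's coding sequence, with the parent's base first.
Capza1 (T543C): tggaagttcaccatTacaccaccttcagc
Gm3608 (T543C): tggaagttcaccatCacaccaccttcagc
Capza1 (A664G): ctgtttctaatgaaAtccaaactaccaag
Gm3608 (A664G): ctgtttctaatgaaGtccaaactaccaag
Capza1 (A760G): ctatgtcagacaccAcgttcaaggccttg
Gm3608 (A760G): ctatgtcagacaccGcgttcaaggccttg
Rps3a1 (T216C): gaagtgagccttgcTgatctacagaatga
Rps3a2 and Rps3a3 (T216C): gaagtgagccttgcCgatctacagaatga
Rps3a1 (T534C): cgagaggtgcagacTaatgacttgaagga
Rps3a2 and Rps3a3 (T534C): cgagaggtgcagacCaatgacttgaagga
Hist2h2aa2 (T135C): gcggagcgtgtgggTgccggcgcgccggt
Hist1h2al (T135C): gcggagcgtgtgggCgccggcgcgccggt
Hist2h2aa2 (G231T): gacaacaagaagacGcgcatcatcccgcg
Hist1h2al (G231T): gacaacaagaagacTcgcatcatcccgcg

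The amino acid was left unchanged by 1 of 3 coding substitutions in Gm3608, 3 of 4 in Rps3a2, 7 of 9 in Rps3a3 and 2 of 2 in Hist1h2al. Most stretches of a copy cannot be told from its parent. Of the 2828 stretches of 31 bases in Gm3608, 2517 (89%) also stand in the Capza1 transcript used, and 268 stand in no other transcript of the annotation. For Rps3a2 the shared number was 646 of 762 (84.78%), for Rps3a3 514 of 765 (67.19%) and for Hist1h2al 247 (79.94%). The stretches found in no other transcript numbered 54 for Rps3a2, 165 for Rps3a3 and 56 for Hist1h2al.

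**Figure D1:**
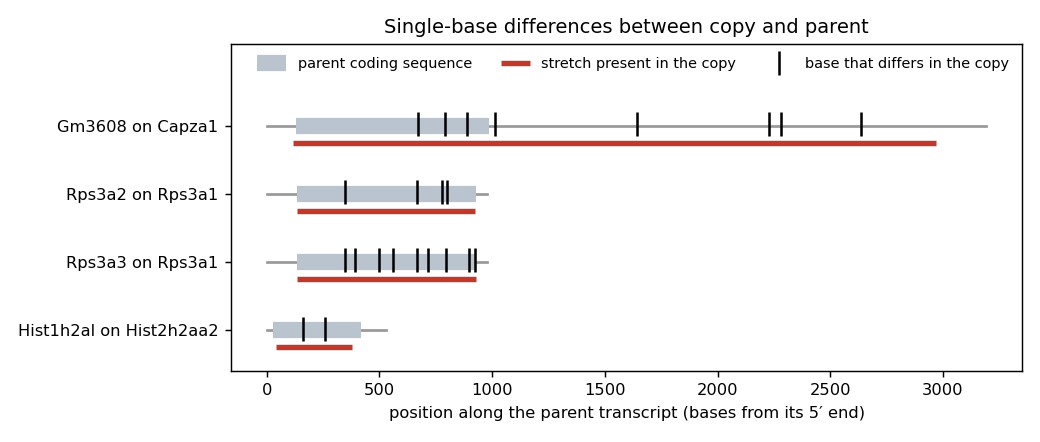
Map of each copy on its parent's transcript. The x axis is the position in bases from the parent transcript's 5′ end; grey bars are the parent's coding sequence, red bars the stretch present in the copy, and black ticks the bases that differ. The 8 differences of Gm3608 are spread over its length, and Hist1h2al has 2.

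The libraries held between 13539148 and 22399005 estimated counts each. Adar was at 164.8 to 188.8 CPM in wt and 196.3 to 203.8 in P195A/-, with 232.3 to 244.9 for P195A/+ and 282.4 to 345.6 for P195A/P195A. CPM, the usual scaled count of sequencing studies, are estimated counts relative to the library total after TMM scaling, a correction of that total for composition. Summed CPM of 5 neuron markers lay between 3216 and 3903 in every library, and those of 4 oligodendrocyte markers between 4639 and 6358. Astrocyte markers summed to 1025 to 1325, microglia to 97.5 to 165.1 and dividing cells to 5.18 to 15.8 CPM. The genes listed for liver (Alb, Apoa1, Ttr and Cyp2e1) summed to 218.1 to 351 CPM. Which cells gave the reads of these genes was not tested. Markers of pituitary (0.619 to 933.1), skeletal muscle (1.72 to 222) and blood (234.2 to 1189) had wider ranges, and heart markers were at 0 to 1.19. Whether the share of these cells bears on the values below was not tested. In bulk tissue, fewer cells of a type and less RNA per cell cannot be told apart.

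Gm3608 had high estimated counts in wt and P195A/- brains and almost none in P195A/+ and P195A/P195A brains. Whether the mice differ in sequence at a copy or its parent was not tested for any of the copies. Its estimated counts were 534, 584.2 and 627.8 in the wt libraries. In P195A/+ they were 0, 15.2 and 5.5. The P195A/P195A libraries had 0, 5.41, 12.2 and 5.33, and the P195A/- libraries 421.2, 463 and 459.7. No library of the 2 low genotypes came within the range of the 2 high ones. As levels, the means were 29.7 ± 1.21 CPM in wt, 0.332 ± 0.373 for P195A/+, 0.327 ± 0.249 for P195A/P195A and 26.7 ± 1.42 for P195A/- (SD, n = 3, 3, 4 and 3). The summed counts were 84.6-fold higher in wt than in P195A/+ (95% interval 55.2 to 137) and 87.2-fold higher than in P195A/P195A (57.9 to 138). Against the same 2 genotypes, P195A/- was 76.1-fold (49.6 to 123) and 78.4-fold (52 to 124) higher. The 2 high genotypes were close, wt being 1.11-fold above P195A/- (1.04 to 1.19), although their ranges did not overlap. These intervals cover counting error only, with estimated counts taken as reads of known origin. Error in dividing shared reads between copy and parent is left out, and so is the spread between mice, whose counts were pooled.

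Capza1, the parent, ran the other way. Its level was 59, 50.9 and 57.2 CPM in wt, then 80.9, 71.5 and 82.6 in P195A/+. P195A/P195A libraries had 79.9, 71.9, 72.2 and 80.8 CPM, and P195A/- libraries 49.1, 53.4 and 50.5. Every library with Gm3608 counts near 0 thus had a higher Capza1 estimate than every library with high Gm3608 counts. On the log2 scale, the ratio of means to wt was 0.49 for P195A/+ (SE 0.0916), 0.45 for P195A/P195A (SE 0.0788) and -0.13 for P195A/- (SE 0.0736, ranges overlapping). Per kilobase of transcript, Gm3608 reached 10.4 ± 0.423 CPM per kb in wt, against 17.4 ± 1.32 for Capza1 (SD, n = 3).

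The sum of Gm3608 and Capza1 varied less between genotypes than either of them. It was 85.4 ± 3.68 CPM in wt, 78.7 ± 5.66 for P195A/+, 76.5 ± 4.61 for P195A/P195A and 77.7 ± 3.48 for P195A/- (SD, n = 3, 3, 4 and 3). By library the sums were 89, 81.7 and 85.5 in wt, and 80.9, 72.2 and 82.9 for P195A/+. The P195A/P195A libraries had 79.9, 72.3, 72.8 and 81.1, those of P195A/- 75.4, 81.7 and 76. All 4 P195A/P195A sums lay below all 3 wt sums, the closest pair being 81.1 and 81.7 CPM, with a log2 ratio of means of -0.16 (SE 0.0564). The other ratios to wt were -0.12 for P195A/+ (SE 0.0709) and -0.14 for P195A/- (SE 0.0515), with overlapping ranges. Gm3608 made up 34.8% ± 2.43 of the summed count in wt and 34.3% ± 0.643 in P195A/- (SD, n = 3 each). In the 7 libraries of P195A/+ and P195A/P195A its share was between 0 and 1.02%. The exact (Clopper-Pearson) 95% intervals of the 2 libraries at 0 reach up to 0.248% and 0.276%. Such bounds leave out error in dividing shared reads between copy and parent.

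**Figure D2:**
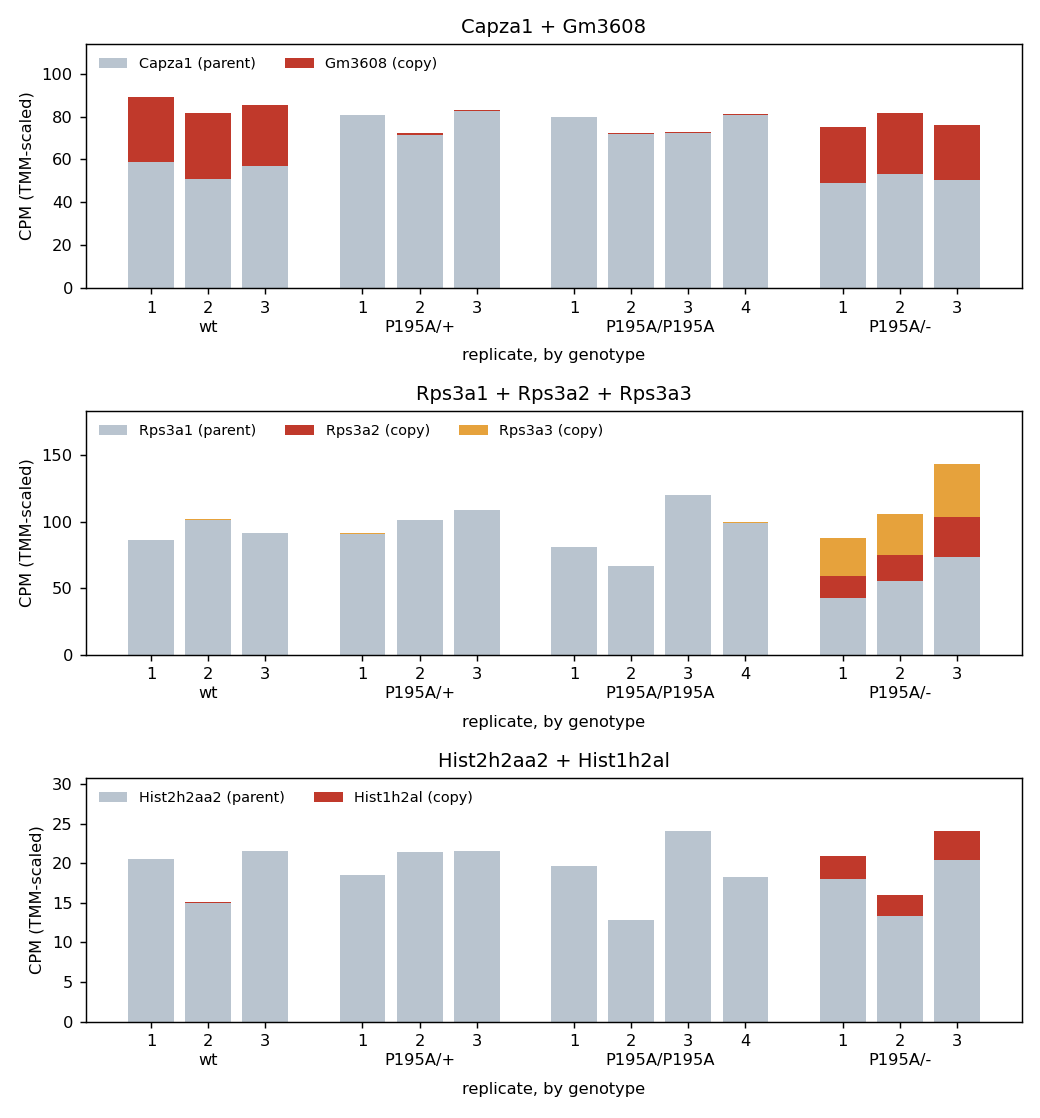
Level of parent (grey) and copies (red and orange) in each of the 13 libraries, stacked, in TMM-scaled CPM, with the replicates of each genotype side by side on the x axis. The total height is the sum for the family; the red part of the Capza1 panel stands out in wt and P195A/- libraries and is at 0.736 CPM or less in the others, while the copies of Rps3a1 and Hist2h2aa2 stand out in P195A/- libraries and are each at 0.556 CPM or less in the other 10.

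Estimated counts of both Rps3a copies were high in P195A/- brains alone. Rps3a2 had 263.5, 321.9 and 549.1 estimated counts in the P195A/- libraries. Elsewhere it had 0 in 9 of 10 libraries and 1.06 in P195A/+ replicate 1. Rps3a3 had 466.7, 506.2 and 711.3 counts in P195A/-, and between 1.02 and 10.2 in each of the other 10 libraries. Its wt counts were 2.08, 3.08 and 5.21. P195A/+ libraries had 10.2, 5.64 and 3.09, and P195A/P195A libraries 1.02, 7.08, 2.41 and 3.13. The P195A/- libraries did not overlap any other genotype for either copy, and the remaining genotypes overlapped each other. Summed over libraries, Rps3a2 was at least 442-fold higher in P195A/- than in wt and at least 507-fold higher than in P195A/P195A, with 3 counts over the group as the floor for a group at 0. Against the single count in P195A/+, the ratio was 1350 with a 95% interval of 242 to 53300. Rps3a3 was 197-fold higher in P195A/- than in wt (107 to 411), 105-fold higher than in P195A/+ (67.3 to 176) and 161-fold higher than in P195A/P195A (95.9 to 296).

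The estimate for Rps3a1, the parent, was lowest in the genotype with high counts of the copies. Its level was 86.3, 101.6 and 91.4 CPM in wt, and 90.7, 101.1 and 109 for P195A/+. The P195A/P195A libraries had 80.9, 66.4, 120 and 99.3 CPM, those of P195A/- 42.7, 55.2 and 73.4. The log2 ratio of P195A/- to wt was -0.70 (SE 0.236) and the ranges did not overlap; against P195A/P195A it was -0.68 (SE 0.291), and the ranges overlapped through P195A/P195A replicate 2, at 66.4 CPM. The ratios of P195A/+ and P195A/P195A to wt were 0.11 (SE 0.103) and -0.02 (SE 0.197).

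With both copies added, the mean Rps3a sum in P195A/- was no lower than in the other genotypes. It was 93.3 ± 7.78 CPM in wt, 100.6 ± 8.92 for P195A/+, 91.9 ± 23.1 for P195A/P195A and 112.4 ± 28.2 for P195A/- (SD, n = 3, 3, 4 and 3). The P195A/- libraries, at 88.2, 105.7 and 143.4 CPM, spanned a wider range than wt, at 86.4, 101.7 and 91.6. The log2 ratio of the sum to wt was 0.27 for P195A/- (SE 0.216), 0.11 for P195A/+ (SE 0.101) and -0.02 for P195A/P195A (SE 0.195), and all ranges overlapped. The copies together took 51.5%, 47.8% and 48.8% of the summed count in the P195A/- libraries. Their exact (Clopper-Pearson) 95% intervals were 48.9 to 54.2%, 45.4 to 50.2% and 46.8 to 50.7%. The intervals take estimated counts as reads of known origin, so they are too narrow where reads fit both copy and parent. In the other 10 libraries the share was between 0.0753 and 0.772%. Within P195A/- the 3 genes kept the same order of libraries, replicate 1 being lowest and replicate 3 highest for Rps3a1, Rps3a2 and Rps3a3 alike. Per kilobase, Rps3a3 was at 41.7 ± 7.01, Rps3a2 at 28 ± 9.31 and Rps3a1 at 58.5 ± 15.8 CPM per kb in P195A/- (SD, n = 3).

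Hist1h2al followed the Rps3a copies at a lower level. It had 47.2, 44 and 65.2 estimated counts in the P195A/- libraries, 1 count in wt replicate 2, and 0 in the other 9 libraries. The mean was 3.08 ± 0.483 CPM in P195A/- (SD, n = 3). The summed count was 182-fold higher in P195A/- than in wt (95% interval 32.2 to 7240, against 1 count), at least 61.8-fold higher than in P195A/+ and at least 69.8-fold higher than in P195A/P195A. Hist2h2aa2, the parent, had 20.6, 15 and 21.6 CPM in wt libraries and 18.6, 21.4 and 21.6 in those of P195A/+. Its level was 19.7, 12.9, 24.1 and 18.3 CPM for P195A/P195A and 18, 13.4 and 20.5 for P195A/-. All 4 genotypes overlapped, and the log2 ratio of P195A/- to wt was -0.14 (SE 0.246). The copy made up 15.3% ± 1.38 of the summed count of Hist1h2al and Hist2h2aa2 in P195A/- (SD, n = 3). Gm20634 and Hist2h2aa1, identical to Hist2h2aa2 over its coding sequence, are left out of this sum and are given below. In the 9 libraries at 0, the exact 95% interval of the share reached at most 2.07%, error in dividing shared reads left out. Its level of 3.08 CPM in P195A/- was below the SD of Hist2h2aa2 between the same libraries, 3.63 CPM. The sum was 19.1 CPM in wt, 20.5 for P195A/+, 18.7 for P195A/P195A and 20.4 ± 4.07 for P195A/-, and the log2 ratios to wt were 0.10 (SE 0.177), -0.03 (SE 0.249) and 0.09 (SE 0.237).

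**Figure D3:**
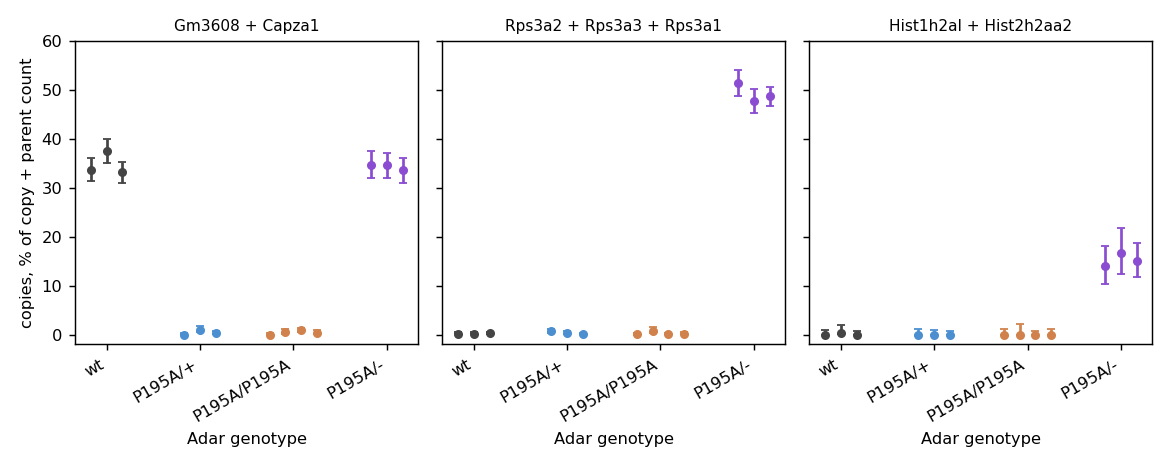
Share of the copies in the summed estimated count of copies and parent (y axis, percent) for each library, by Adar genotype (x axis). Points are libraries and bars are exact (Clopper-Pearson) 95% intervals, which cover counting error only and leave out error in dividing shared reads. Gm3608 is near 34% in wt and P195A/-, and the shares of the other copies are above 10% in P195A/- only.

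The annotation holds 8 further near-identical copies of these parents, defined by at least 95% identity over at least 80% of the parent's coding sequence. For Capza1 there was 1, Gm5920, at 0 counts. For Rps3a1 there were 4: Gm7600 and Gm8960 had 0 counts, Gm5586 had 8.73 counts over all libraries, and Gm13408 had 129.7, with means of 0.409 to 0.708 CPM. None of these reached the level of Rps3a2 or Rps3a3 in P195A/-. The 3 with the most counts were relatives of Hist2h2aa2. Gm20634, a transcript that overlaps Hist2h2aa2 and is identical over its coding sequence, had 1401 counts in all, so reads of these 2 genes cannot be told apart there. Its means were 6.10 CPM in wt, 6.16 for P195A/+, 6.82 for P195A/P195A and 4.01 for P195A/-. The log2 fold change of P195A/- against P195A/P195A was -0.76 (SE 0.271, adjusted p = 0.645, edgeR's quasi-likelihood test with Benjamini-Hochberg adjustment). Hist2h2ac, at 96.44% identity, had 760.5 counts and means of 2.79 to 3.31 CPM. Hist2h2aa1, which is identical to Hist2h2aa2 over the coding sequence, had 258.8 counts and means of 0.860 to 1.36 CPM. Of the 4 copies with enough counts for edgeR's test, 0 passed at an adjusted p of 0.05 in any of the 4 comparisons, and Gm20634 in P195A/- against P195A/P195A was the 1 case with an unadjusted p under 0.05. Over all genes tested, 0.01% passed for P195A/+ against wt, 0.0501% for P195A/P195A against wt, 0.0351% for P195A/- against wt and 0.0401% for P195A/- against P195A/P195A.

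Genes that were on in 1 genotype and off in another were rare. With at least 10 counts in every library of a genotype and at most 1 in every library of another, 9 of the 18555 genes that met the first condition in some genotype qualified, or 0.0485%. The rule took Rps3a2 and Hist1h2al, the only 2 of the 9 with under 2 counts in every library outside their high genotype. The members were selected for counts of this kind, so their meeting the rule is no separate evidence about them. Gm3608 and Rps3a3 did not meet the rule, because their low genotypes had libraries with more than 1 count. The others were Gm9531, Rps26-ps1, Gm43108, Gm49749, Gm43694, S100a5 and Gm44126. Annotated pseudogenes made up 5 of the 9, with the selected members Rps3a2 and Hist1h2al among them. The share of pseudogenes among the 18555 genes was not computed, so this number has nothing to be set against. Gm9531, a transcribed processed pseudogene on chromosome 9, had 74.8 to 100.7 counts in wt and at most 1 in each P195A/+ library. Its highest count outside wt was 252.6, above every wt library. Rps26-ps1, a pseudogene of another 40S protein gene on chromosome 8, had 34.9 to 90.8 counts in wt and at most 1 in each P195A/P195A library. Outside wt it reached 74.5 counts. S100a5, a gene of the S100 calcium-binding family, and Gm43108 were the 2 on chromosome 3. Gm43694, Gm44126 and Gm49749 were on chromosomes 5, 6 and 12. The share of chromosome 3 among the 18555 genes was not computed.

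The genes most like each member over the 13 libraries were taken by Pearson's r of log2(CPM + 1), among the tested genes with a mean of at least 1 CPM, and are given as a description, since all points share the same libraries. Hist1h2al was most like Rps3a2 (r = 0.998) and Rps3a3 (r = 0.996). These copies were all selected for counts high in some genotypes and near 0 in others, so such r values follow from the selection. Rps3a2 and Rps3a3 reached the mean of 1 CPM only through P195A/-, where they had 22.2 and 33.1 CPM. The r values of other genes with the copies likewise mainly reflect the contrast of high and low genotypes. Next came Ifit1, an interferon-induced gene, at r = 0.884. Ifit1 also led for Rps3a2 (r = 0.892), before Ptprf and Lgals9, and for Rps3a3 (r = 0.893), before Plekha6 and Ptprf. Its level was 2.54 ± 0.812 CPM in wt, 2.08 ± 0.367 for P195A/+, 2.10 ± 0.542 for P195A/P195A and 5.60 ± 1.06 for P195A/- (SD). Ifit1 was thus present in every genotype, whereas Rps3a2 and Hist1h2al were at or near 0 in those other than P195A/-. For Gm3608 the most alike were Scarf2 (r = 0.870), Adamtsl4 (r = 0.864) and 1700030J22Rik (r = 0.850), on chromosomes 16, 3 and 8. Scarf2 had 2.24 ± 0.400 CPM in wt, 1.57 ± 0.106 for P195A/+, 1.38 ± 0.065 for P195A/P195A and 2.19 ± 0.288 for P195A/-. Adamtsl4, at chr3:95676201-95687917, had 9.46 ± 0.586 CPM in wt, 6.59 ± 1.32 for P195A/+, 5.81 ± 0.442 for P195A/P195A and 9.67 ± 1.51 for P195A/-. Capza1 was most like Taf2 (r = 0.906), Tmem87b (r = 0.865) and Chrnb2 (r = 0.858), on chromosomes 15, 2 and 3. Taf2 had 64.5 ± 2.06 CPM in wt, 70.1 ± 3.72 for P195A/+, 72.2 ± 3.51 for P195A/P195A and 59.4 ± 2.99 for P195A/-. Chrnb2, a nicotinic receptor subunit gene that overlaps the end of Adar at chr3:89746195-89764632, had 86.3 ± 1.81 CPM in wt, 125.1 ± 7.61 for P195A/+, 141.1 ± 26.4 for P195A/P195A and 87.4 ± 7.41 for P195A/-. Rps3a1 was most like Pmpca (r = 0.938), Hspa4 (r = 0.932) and Zfp87 (r = 0.923), and Hist2h2aa2 like Nomo1 (r = 0.934), Fkbp2 (r = 0.907) and Gsdme (r = 0.897).

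Other genes of the same 3 systems were tested across all 19962 genes that passed the filter on low counts, and 0 of 73 passed in any comparison with edgeR's quasi-likelihood test at an adjusted p of 0.05. The lists hold 19 measured genes of actin filament capping, 35 of the 40S subunit and 19 of histone H2A, without the members. The shares over all genes, 0.01% to 0.0501%, come to less than 1 gene in lists of this size. DESeq2 called 1 of these genes in P195A/- against wt and 0 in the other comparisons, and limma-voom called 0. At an unadjusted p under 0.05 the lists had 0, 2 and 0 genes for P195A/+ against wt, and 1, 3 and 0 for P195A/P195A against wt, in the order capping, 40S and H2A. For P195A/- the numbers were 4, 8 and 1 against wt and 3, 2 and 1 against P195A/P195A. The same unadjusted level took 4.48%, 5.89%, 10.6% and 6.82% of all genes in these comparisons. For P195A/- against wt the median log2 fold change was 0.15 for capping, 0.06 for the 40S subunit and -0.07 for H2A, beside 0.02 over all genes tested.

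Genes with the smallest p of each list and comparison are named here, and none passed with all libraries. Rps27, a 40S gene on chromosome 3 at chr3:90212522-90213651, had 0.659 ± 0.330 CPM in wt, 2.29 ± 1.06 for P195A/+, 2.30 ± 0.964 for P195A/P195A and 1.92 ± 0.512 for P195A/-. Its log2 fold changes against wt were 1.83 in P195A/+ (SE 0.466, adjusted p = 0.626), 1.83 in P195A/P195A (SE 0.449, adjusted p = 0.694) and 1.57 in P195A/- (SE 0.473, adjusted p = 0.27). Rps27rt, a retrocopy of Rps27 on chromosome 9, had 5.61 ± 0.726 CPM in wt, 7.74 ± 1.69 for P195A/+, 11.9 ± 5.23 for P195A/P195A and 12.7 ± 4.02 for P195A/-. Its log2 fold changes against wt were 1.09 in P195A/P195A (SE 0.344, adjusted p = 0.8294) and 1.18 in P195A/- (SE 0.362, adjusted p = 0.281). Without P195A/P195A replicate 2 it did pass edgeR's test for P195A/P195A against wt, at 1.36 with an adjusted p of 0.0446. Rps20 in P195A/+, and Rps27a and Rps24 in P195A/- against P195A/P195A, were also named, with log2 fold changes of 0.34, 0.61 and 0.73. Of the capping genes, Mtpn, which binds and inhibits capping protein, had the smallest p in P195A/- against wt (log2 fold change -0.22, SE 0.0813, adjusted p = 0.336). It was also among the 2 of P195A/- against P195A/P195A, at -0.18, after Capg, an actin-capping gene of the gelsolin family, at 1.16. Carmil3 was named for P195A/- (0.44) and P195A/P195A (0.26) against wt, Vil1 for P195A/P195A (1.52), and Gsn and Flii for P195A/+ (0.28 and 0.20). Of the H2A genes, H2afz, which encodes the variant H2A.Z, had log2 fold changes of -0.35 in P195A/- against wt (SE 0.117, adjusted p = 0.303) and -0.27 against P195A/P195A (adjusted p = 0.685). The others were Hist2h2ab (-1.01) and Hist3h2a (0.20) for P195A/+, H2afj (-0.25) and Hist1h2ap (1.37) for P195A/P195A, H2afy (0.23) for P195A/- against wt, and H2afx (0.48) for P195A/- against P195A/P195A.

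**Figure D4:**
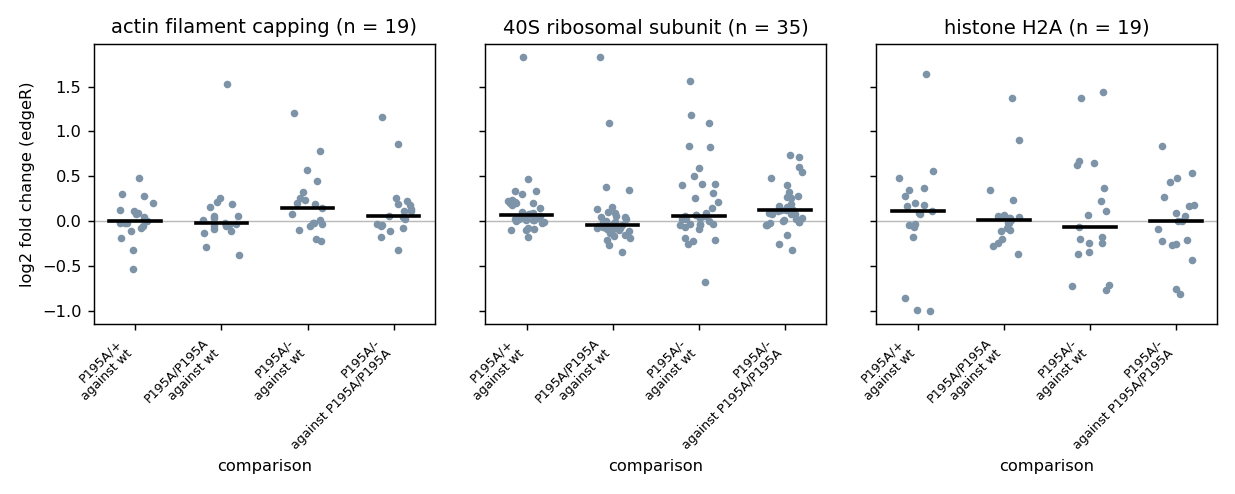
Log2 fold change (y axis, edgeR) of the genes related to the 3 parents in the 4 comparisons (x axis); each point is a gene, with a small random sideways shift, and the black line is the median. The medians lie between -0.07 and 0.15, and 0 of the genes passed the test.

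Editing of these genes did not enter their selection, and it could be read in Capza1 only. The deposited site tables listed 10 known editing sites in Capza1, all in introns, and no site in the other 6 genes. None had at least 10 reads of A or G in every library of a comparison, so no single site could be tested. The A and G calls were therefore pooled over the 7 sites listed for every library, a choice made after the depth was seen. A read that covers several sites is counted at each of them, and 4 of the 7 lie close together (chr3:104828275-104828318, mm10), so the calls need not be from separate reads and no counting interval is given. Edited calls made up 33.7% ± 7.55 in wt, 31% ± 1.58 for P195A/+, 25.5% ± 2.55 for P195A/P195A and 23.9% ± 6.31 for P195A/- (SD, n = 3, 3, 4 and 3), from 40 to 98 calls a library. By library the share was 29.4%, 29.2% and 42.4% in wt and 29.6%, 32.7% and 30.7% for P195A/+. It was 23.7%, 24.5%, 29.3% and 24.4% for P195A/P195A, and 17.1%, 25% and 29.5% for P195A/-. Without wt replicate 3, the 74-day mouse and the highest library, the difference from wt went from -8.17 to -3.81 percentage points for P195A/P195A, from -9.78 to -5.42 for P195A/- and from -2.64 to 1.72 for P195A/+. The 2-sided exact permutation p was 1 for P195A/+, 0.114 for P195A/P195A and 0.3 for P195A/- against wt, and 0.8 for P195A/- against P195A/P195A (adjusted over these 4: 1, 0.457, 0.6 and 1). The smallest p this test allows is 0.1 for 3 against 3 libraries and 0.0571 for 3 against 4, so with these numbers of libraries it could not pass 0.05 at any depth.

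These positions lie in introns of Capza1, which the Gm3608 transcript lacks. The calls there give coverage of Capza1 introns without the estimated counts of either gene, and are no check of the Capza1 estimates. Scaled like CPM, by the library's total estimated count without TMM, the calls summed over the 7 sites were 2.97 ± 0.721 in wt, 3.04 ± 0.434 for P195A/+, 3.86 ± 2.34 for P195A/P195A and 2.50 ± 0.118 for P195A/- (SD, n = 3, 3, 4 and 3). The P195A/P195A libraries had 3.55, 7.24, 1.98 and 2.67, so replicate 2, the library with the fewest estimated counts, stood highest. All ranges overlapped that of wt. Intronic reads come from unspliced RNA, and the tables list sites by a minimum of 3 reads, so this is a measure of coverage at a few positions and not of the Capza1 messenger RNA.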

How the data were processed

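Whole-brain RNA of 13 mice was sequenced. The authors deposited gene abundances as estimated counts, for which the submitters' processing notes name fastp 0.19.5 (read trimming), Salmon (quantification) and edgeR; the index, the annotation and the aligner are not given. By ID, 51482 of 54307 genes were found in GENCODE M21 (GRCm38), which may not be the annotation behind the deposited counts. The authors also deposited counts of A, C, G and T reads at known editing sites, from JACUSA2 on mm10, with a minimum coverage of 3, per the file headers.

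After rounding, a robust quasi-likelihood model with 1 coefficient per genotype was fitted to all libraries together in edgeR 4.0.16 (R 4.3.3), with TMM scaling and the filterByExpr filter, which left 19962 genes, with Benjamini-Hochberg adjustment over all genes. The fit was tested on simulated data: for P195A/- against wt it called 91 of 100 genes changed 4-fold, 63 of 100 changed 2-fold and 9 unchanged genes, over 19962 genes. For P195A/P195A against wt these were 92, 61 and 9, and for P195A/+ against wt 95, 63 and 17. The changed genes were drawn only from those above 1 CPM on average. Some of the related genes lie below that level, where recovery was not simulated. DESeq2 1.42.0, limma 3.58.1 (voom) and the other settings of the closing section were alternatives. Copies were aligned to parents with Biopython 1.88, and other copies sought with BLAST 2.17.0. Levels are CPM on TMM-scaled library sizes. Floors of 3 counts and 95% intervals cover counting error only. They take the estimated counts as reads of known origin, so error in dividing shared reads between copy and parent is left out. The spread between mice is left out too. Nothing in the labels says how the mice are related, so p-values measure the spread between these animals.

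The members, gene lists and tests were chosen with earlier results of these data known. Named genes were all members; the 2 related genes with the smallest p per list and comparison and any that passed, of which 1 gene is not reported here; the 3 most alike genes by Pearson's r, leaving out the same family; all genes on in 1 genotype and off in another; and the 3 further copies with the most counts. The planned test of single editing sites could not be run, for lack of reads.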

Additional observations from a re-analysis of the deposited data

Results flagged for a closer look

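In P195A/P195A, replicate 3 stood apart in the edited share at Capza1 intron sites, at 29.27% (12 of 41 calls, which need not be from separate reads), while the other 3 libraries lay between 23.7% and 24.5%. Its gap to the nearest library was 0.863 of the group's range, above Dixon's 95% critical value for 4 libraries. This was 1 of 9 series of values examined this way, and chance flags about 1 in 20.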

How the results depend on the processing

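All 9 log2 ratios of summed copy and parent levels to wt stayed within 1 SD of the library spread under other scalings, all near-identical copies in the sum, medians in place of means (36 values) and each library left out (57 values). Of those near 0, some changed sign: with all copies in the sum, the H2A sum was at 0.02 in P195A/P195A and -0.04 in P195A/-. Leaving out 1 library moved the Rps3a sum in P195A/- between 0.06 and 0.42.

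The number of related genes passing was 0 in every comparison and setting except 2: 1 with DESeq2 for P195A/- against wt (where DESeq2 called 169 of all genes and edgeR 7), and 1 without P195A/P195A replicate 2 for P195A/P195A against wt (Rps27rt, log2 fold change 1.36, adjusted p = 0.0446), so that the range was 0 to 1. The causes were not tested. Over all genes DESeq2 called 19, 16 and 52 in the other comparisons against edgeR's 2, 10 and 8, and with no filter on low counts edgeR called 7, 12, 16 and 29. With the replicate number as a block, 0 related genes passed in all 4 comparisons; same-numbered libraries correlated between -0.0744 and 0.124 in their deviations from the group means, so the numbers were not taken to pair the libraries.

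The pooled edited share of Capza1 reversed in 2 cases, from -2.64 to 1.72 points for P195A/+ against wt without wt replicate 3 (range over libraries left out -4.88 to 1.72) and from -1.61 to 1.79 points for P195A/- against P195A/P195A without P195A/- replicate 1 (range -4.45 to 1.79). Without wt replicate 3, P195A/P195A against wt went from -8.17 to -3.81 points (range -10.41 to -3.81) and P195A/- against wt from -9.78 to -5.42 (range -12.61 to -5.42; -6.38 without P195A/- replicate 1). No editing site of these genes reached 10 reads in every library of a comparison, so a stricter minimum, leaving out libraries and a block gave no value there.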
